A study of Mus musculus with 4 samples.

Results

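RNA-seq counts of 10 genes for matricellular and related matrix proteins were compared between Lin−LEPR+ skeletal stem/progenitor cells (SSPCs) of mature and elderly mice. The genes were Fn1 (fibronectin), Fndc1, Tnc (tenascin-C), Postn (periostin), Sparc, Thbs2 (thrombospondin 2) and the CCN family genes Cyr61, Ctgf, Wisp1 and Wisp2, taken by name out of 33924 gene symbols. They were chosen by name with the age differences of these same counts already known. The mature group was wild-type C57Bl/6 mice aged 3 months and the elderly group wild-type C57Bl/6 mice aged 24 months, and the methods give males. No allele or treatment distinguished the groups. There were 2 libraries per age. The methods state that each group pooled the RNA of 3 or 4 mice, whereas the titles number the libraries as mouse 1 and mouse 2, so it is not known how mice were divided between libraries. Every SD (n = 2) therefore refers to the spread between 2 libraries, which may be technical. The p-values rest on variance shared across genes or, in the study's exact test, on a fixed dispersion of 0.2. They too may not reflect the spread between mice. The labels call the source whole bone marrow, whereas the methods describe marrow digested with Liberase and sorted as negative for Ter119, CD31 and CD45 and positive for the leptin receptor. Lepr, at 4107 to 6385 CPM (counts scaled to the library's TMM-adjusted size), and Cxcl12, at 7183 to 13643 CPM, were abundant in all 4 libraries, and the CD45 gene Ptprc lay between 0.0858 and 1.08 CPM, although only 152 of its bases could be counted. The libraries held 10472117 to 15650518 counts.

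Matricellular proteins are secreted into the extracellular matrix but act mainly as signals rather than as scaffold. They bind integrins, syndecans, growth factors and collagens, are low in most resting adult tissue and are induced in development, wound repair and bone remodelling. Fibronectin is the fibrillar adhesive protein on which many of them assemble, and Fndc1 encodes a secreted protein that carries fibronectin type III repeats. In bone marrow, CCN proteins, periostin, SPARC, tenascin-C and thrombospondin 2 are known as products of stromal and osteoblast lineage cells.

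The deposited counts covered these genes unevenly. Reads on bases shared by several annotated transcripts are absent from the counts: the 25621 transcripts that share every base with another were at 0 throughout. The bases that could be counted were therefore computed for each gene from GENCODE M1, the annotation of the study's genome build (NCBI Build 37, mm9). Cyr61, with 1 transcript at chr3:145309935-145312949, was countable over all 2028 bases. Ctgf-001 (gene at chr10:24315248-24318489) was countable over 1615 of 2403 bases and Wisp2-001 (gene at chr2:163646597-163658882) over 1021 of 1719. Fndc1-001 (gene at chr17:7931434-8020167) was countable over 4227 of 5845 bases. Each of these had coding and untranslated countable bases. For Wisp1-001 (chr15:66722882-66754763) all 3191 countable bases were untranslated, and for Thbs2-202 (chr17:14802507-14831269) this held for 2016 of 2021. In these 6 genes the transcript named here held at least 97.98% of the gene's counts.

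**Figure D1:**
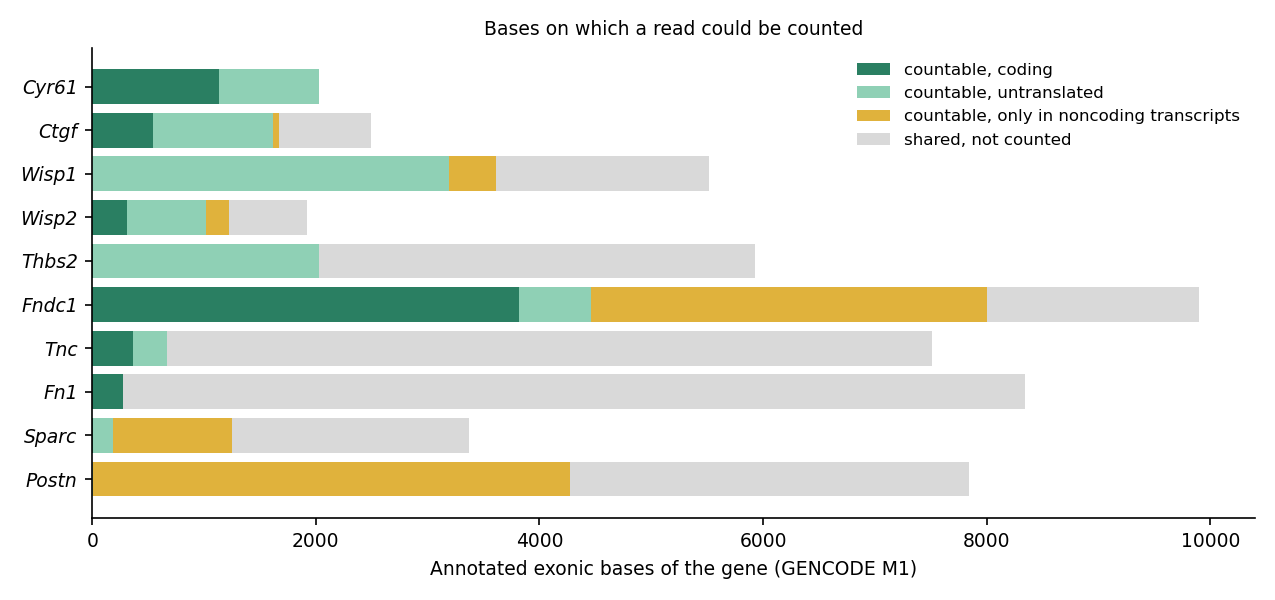
Annotated exonic bases of each gene (horizontal axis, number of bases), divided into bases on which a read could be counted (coding, untranslated, or present only in noncoding transcripts) and bases shared between transcripts, which were not counted. Cyr61 was countable over all 2028 bases, Fn1 over 276 of 8344, and in Postn nearly all 4271 countable bases belonged to noncoding transcripts.

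The other 4 genes were measured only in part. Sparc (chr11:55208002-55233582) had 183 countable bases in its longest coding transcript, which held 1 to 5 counts per library, and the remaining Sparc counts fell in processed transcripts, mostly in the 724 bases of Sparc-004 that no coding transcript holds. Postn (chr3:54165031-54194961) had 6 countable bases in coding transcripts, with 0 counts, and all of its counts fell in retained-intron transcripts. A low value of Sparc or Postn is therefore not a low level of the spliced mRNA. Tnc (chr4:63620819-63681760) and Fn1 (chr1:71632094-71699774) each had most of their counts in 1 alternatively spliced exon of 273 bases, a single fibronectin type III repeat. This exon was 273 of the 276 countable bases of Fn1 and 273 of the 672 of Tnc, whose other 399 lay in the short transcript Tnc-003. In Fn1 this exon encodes the repeat known as extra domain B, which is typical of embryonic and remodelling tissue and mostly spliced out in resting adult tissue. The exons are shown because they are what the Fn1 and most of the Tnc counts stand for. Capitals mark the countable exon, and lower case marks 12 bases of the neighbouring exons on each side, which other transcripts share. Both are coding and lie on the reverse strand of NCBI Build 37, the Fn1 exon (exon 25 of Fn1-201) at chr1:71660337-71660609 and the Tnc exon (exon 14 of Tnc-002) at chr4:63645494-63645766.
Fn1 exon 25: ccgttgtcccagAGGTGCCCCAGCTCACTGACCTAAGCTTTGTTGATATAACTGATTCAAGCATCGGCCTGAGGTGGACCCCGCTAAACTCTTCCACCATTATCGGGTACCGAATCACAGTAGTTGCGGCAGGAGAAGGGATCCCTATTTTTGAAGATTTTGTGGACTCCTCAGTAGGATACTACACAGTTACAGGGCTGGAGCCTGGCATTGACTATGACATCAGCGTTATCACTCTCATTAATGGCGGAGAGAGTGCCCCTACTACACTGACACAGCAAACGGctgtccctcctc
Tnc exon 14: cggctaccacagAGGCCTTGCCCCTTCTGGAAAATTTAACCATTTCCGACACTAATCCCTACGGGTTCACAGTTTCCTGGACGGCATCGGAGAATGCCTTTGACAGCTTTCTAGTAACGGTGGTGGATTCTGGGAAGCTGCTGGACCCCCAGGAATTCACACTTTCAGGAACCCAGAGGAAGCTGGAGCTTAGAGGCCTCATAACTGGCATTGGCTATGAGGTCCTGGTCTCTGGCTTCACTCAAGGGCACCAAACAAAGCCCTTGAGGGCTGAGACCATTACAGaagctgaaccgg
The Fn1 exon was absent from the other 2 Fn1 transcripts, and the Tnc exon from the other 5 Tnc transcripts.

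Levels were compared between genes as CPM per kilobase of the countable bases of the transcript with the most counts. Cyr61, Ctgf and Wisp2 were the most abundant, and their order differed between ages. In mature libraries Cyr61 had 1453 and 1381, Ctgf 1078 and 581, and Wisp2 818 and 854 CPM per kilobase, so Cyr61 was the highest and Ctgf and Wisp2 overlapped. In elderly libraries Ctgf had 1056 and 1861, Cyr61 1041 and 1707, and Wisp2 464 and 476 CPM per kilobase, so Ctgf and Cyr61 overlapped and both lay above Wisp2. The Tnc exon came next in mature libraries, at 205 and 154 against 89.8 and 73.3 for Thbs2, and the 2 overlapped in elderly libraries, at 95.4 and 81.9 against 76.6 and 128 CPM per kilobase. Wisp1, at 16.6 and 8.52, lay above Fndc1, at 1.85 and 2.72, in mature libraries, whereas in elderly libraries they overlapped, at 17.7 and 14.4 against 29.4 and 17.4 CPM per kilobase. Sparc and Postn were left out of this comparison, since their counts fell mostly or wholly on noncoding transcripts. Among the 8 genes with most counts on a coding transcript, the Fn1 exon had the lowest mean over the 4 libraries, 1.76 CPM per kilobase (0 to 5.99). It was not lowest in every library, since in mature replicate 1 it had 5.99 against 1.85 CPM per kilobase for Fndc1.

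All 10 genes passed the filter on low counts, a sum above 2 over the 4 libraries. The age difference was part of what was known when these genes were chosen. It is therefore described by edgeR's fitted log2 fold change (elderly over mature) with a standard error, without a p-value. This standard error was derived from the fold change and the F statistic of edgeR's quasi-likelihood test. It rests in part on variance shared across genes and is not the spread of the gene's own libraries alone. The elderly values were both above the mature ones for 2 genes, Fndc1 and Postn, against 22.9% of all 21340 genes tested. They were both below for 2 genes, Tnc and Wisp2, against 18.1% of all genes, and the ages overlapped for the other 6. The median log2 fold change of the 10 genes was 0.14, beside 0.016 over all genes tested, and it went from −0.16 without elderly replicate 2 and −0.13 without mature replicate 2 to 0.58 without mature replicate 1. In bulk RNA, fewer cells of a type and less RNA per cell cannot be told apart.

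**Figure D2:**
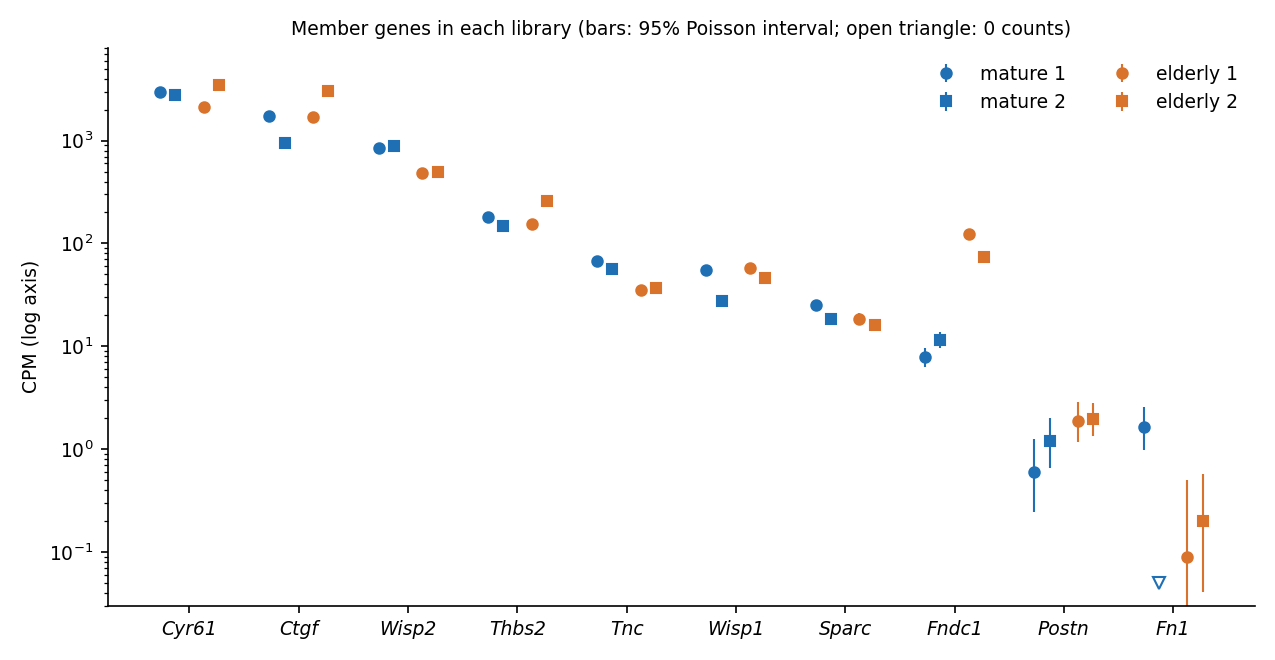
CPM of each gene (vertical, log axis) in mature replicates 1 and 2 (blue) and elderly replicates 1 and 2 (orange), with 95% Poisson intervals that cover counting error only. Fndc1 lay at 7.83 and 11.5 CPM in mature and 124 and 73.7 CPM in elderly libraries, Wisp2 and Tnc were lower in both elderly libraries, and Cyr61, Ctgf, Thbs2, Wisp1, Sparc and Fn1 overlapped between ages.

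Fndc1 had the largest fitted fold change of the 10 genes. Its 91 and 134 counts in mature libraries were 7.83 and 11.5 CPM, and its 1381 and 1117 counts in elderly libraries were 124 and 73.7 CPM. The ages were far apart, although the elderly libraries also differed from each other by 1.68 times. Mature SSPCs averaged 9.66 ± 2.59 and elderly SSPCs 98.9 ± 35.6 CPM (SD, n = 2), and the fitted log2 fold change was 3.35 with a standard error of 0.30. Leaving out 1 library moved it between 2.92 and 3.68. All Fndc1 counts fell on Fndc1-001, and the 3492 countable bases of the retained-intron transcript Fndc1-005 had 0 counts in every library. A floor of 3 counts corresponds to 0.198 to 0.27 CPM per library. The Fndc1 counts were thus those of the exons of the coding transcript.

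Wisp2 (CCN5), the CCN family member that lacks the C-terminal cysteine knot domain, was lower in elderly SSPCs. It had 853 and 886 CPM in mature and 487 and 495 CPM in elderly libraries. Libraries of the same age lay closer together for Wisp2 than for any other of the 10 genes, within 1.04 times in mature and 1.02 times in elderly mice. The means were 869.6 ± 22.8 and 491 ± 5.71 CPM (SD, n = 2). The fitted log2 fold change was −0.82 with a standard error of 0.19 and stayed between −0.85 and −0.83 when 1 library was left out. The noncoding Wisp2-002 had 218 and 158 counts in mature and 152 and 143 in elderly libraries.

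Cyr61 (CCN1) and Ctgf (CCN2) are integrin-binding proteins whose genes are rapidly induced by serum, stretch and the cofactors YAP and TAZ. Cyr61 was counted at 2947 and 2801 CPM in mature and 2111 and 3461 CPM in elderly libraries. The mature values lay between the elderly ones, and the log2 fold change was −0.045 with a standard error of 0.24. Ctgf was counted at 1743 and 939 CPM in mature and 1708 and 3008 CPM in elderly libraries. Its log2 fold change was 0.81 with a standard error of 0.31, and the ages overlapped, since mature replicate 1 lay above elderly replicate 1. Without elderly replicate 2 it was 0.35, and without mature replicate 1 it was 1.33.

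Wisp1 (CCN4), a WNT-induced gene of osteoblast precursors, was counted at 54.7 and 27.4 CPM in mature and 57.05 and 45.9 CPM in elderly libraries. Mature replicate 2 was lower than the other 3 libraries. The log2 fold change of 0.33 (standard error 0.29) became −0.13 without mature replicate 2 and 0.91 without mature replicate 1.

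Tnc, a large glycoprotein that modulates cell adhesion to fibronectin, was lower in elderly SSPCs. It had 68.1 and 55.9 CPM in mature and 34.9 and 37.1 CPM in elderly libraries, with an SD of 8.61 and 1.51 CPM (n = 2). The log2 fold change was −0.78 with a standard error of 0.22, and between −0.96 and −0.63 when 1 library was left out. The difference lay in the alternatively spliced exon 14 of Tnc-002, printed above, with 649 and 490 counts (55.9 and 42.02 CPM) in mature and 290 and 339 counts (26.1 and 22.4 CPM) in elderly libraries. The 399 countable bases of the short transcript Tnc-003 overlapped between ages, at 12.2 and 13.9 CPM in mature and 8.89 and 14.7 CPM in elderly libraries. Tnc-003 does not hold exon 14, and the other 4 Tnc transcripts without the exon had no countable base. Whether the gene's level or the inclusion of exon 14 differed was not tested.

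Fn1 counts, which stand for extra domain B, were near 0. Mature replicate 1 had 19 counts (1.64 CPM, 95% Poisson interval 0.985 to 2.55). Mature replicate 2 had 0, with an upper limit of 0.316 CPM by the same kind of interval, and the elderly libraries had 1 and 3 counts. Only mature replicate 1 was above the floor of 3 counts. The fitted log2 fold change, −2.38 with a standard error of 1.52, enters the median of the 10 genes but rests on that library and turns to 4.00 without it. The level of the fibronectin transcripts without this exon was not measured here.

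Thbs2, which restrains angiogenesis and binds matrix metalloproteinases, was counted at 181 and 148 CPM in mature and 155 and 258 CPM in elderly libraries. Elderly replicate 2 was the highest and the other 3 libraries lay close together. The log2 fold change was 0.33 (standard error 0.25) and became −0.087 without elderly replicate 2.

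Sparc encodes a collagen-binding glycoprotein of bone. Its counts, 1.26% of them on the coding transcript, came to 25.05 and 18.4 CPM in mature and 18.5 and 16.03 CPM in elderly libraries, a log2 fold change of −0.33 with a standard error of 0.27, and the ages overlapped. Postn encodes a fasciclin domain protein that crosslinks collagen. Its retained introns had 7 and 14 counts in mature and 21 and 30 in elderly libraries, which is 0.603 and 1.201 against 1.89 and 1.98 CPM. The elderly libraries were higher, but the Poisson interval of mature replicate 2, 0.656 to 2.01 CPM, reached above elderly replicate 1. The log2 fold change was 1.09 with a standard error of 0.63.

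**Figure D3:**
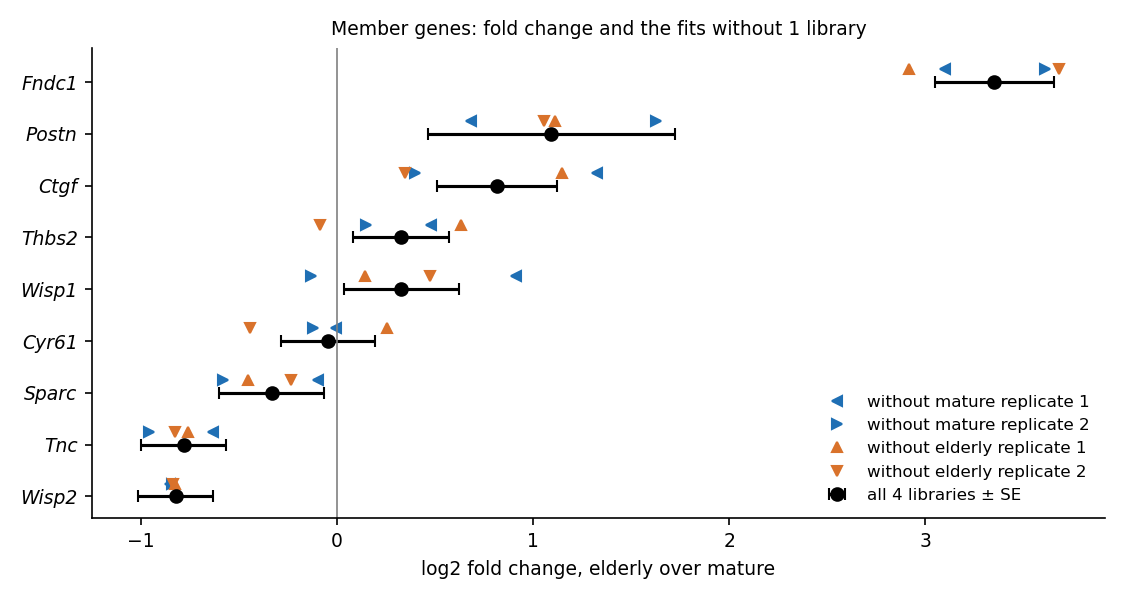
Fitted log2 fold change, elderly over mature (horizontal axis), of the genes except Fn1, with all 4 libraries (black, ± standard error) and with each library left out in turn (triangles). Fndc1 stayed between 2.92 and 3.68 and Wisp2 between −0.85 and −0.83, whereas Thbs2, Wisp1 and Cyr61 lay on both sides of 0.

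Relatives, receptors, assembly partners and regulators of these proteins were taken from 7 lists with 136 genes, of which 121 passed the count filter. With edgeR's quasi-likelihood test and Benjamini-Hochberg adjustment over all 21340 genes, 9 of the 121 rose (7.44%, against 2.28% of all genes) and 3 fell (2.48%, against 0.450% of all genes). Their median log2 fold change was −0.053. The lists were chosen with earlier results of these data known, so the shares and adjusted p-values are not independent of that choice. Most of the related calls were lost when either elderly library was left out. The calls over all genes dropped in the same fits, so this loss is not particular to the related genes. Each called related gene kept its direction under every alternative. With the exact test at the study's dispersion, 2 rose (Itgb8 and Mfap5) and 1 fell (Ptprz1), beside 200 higher and 33 lower of all 21340 genes.

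Among the 21 relatives tested, 3 rose and 0 fell, with a median log2 fold change of 1.01 that includes genes with few counts. Thbs1, the thrombospondin that activates latent TGF-β, had 1470 and 1226 CPM in mature and 2223 and 3300 CPM in elderly libraries, with both elderly libraries above both mature ones (log2 fold change 1.04, standard error 0.23, edgeR adjusted p = 0.0307). Its call was also lost without either mature library, with the exact test and with another filter, filterByExpr. Its log2 fold change ranged from 0.72 to 1.27 over the alternatives. With all 4 libraries, its highest edgeR or DESeq2 adjusted p was 0.949. Platelets also hold Thbs1, and the 5 megakaryocyte markers summed to 13.5 and 225 CPM in mature and 92.4 and 169 CPM in elderly libraries. Their part in the Thbs1 difference was not tested. The SPARC family genes Smoc2, from 31.9 ± 7.94 to 82.8 ± 44.6 CPM (SD, n = 2), and Spock2, from 1.59 ± 0.421 to 6.97 ± 0.965 CPM (SD, n = 2), also rose, with log2 fold changes of 1.38 and 2.13 (edgeR adjusted p = 0.0415 and 0.0159). Smoc2 rested on elderly replicate 2, at 114 CPM against 51.3 CPM in elderly replicate 1, and its log2 fold change was 0.69 without it. Its call was also lost in the robust quasi-likelihood fit. The SPARC relative Sparcl1, at 9.47 and 15.2 against 11.6 and 43.3 CPM, did not pass the test (edgeR adjusted p = 0.326), and Smoc1, with 57 countable bases, was at or below 0.396 CPM.

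The other CCN genes were at the limit of detection, with Nov (CCN3) at 0 to 0.6 CPM and Wisp3 (CCN6) at 0.0861 to 0.792 CPM. Of the other thrombospondins, Thbs3 lay between 9.44 and 15.01 CPM without passing the test (edgeR adjusted p = 0.812), and Thbs4 was at or below 0.264 CPM. Comp had 0 counts in all libraries, but it had only 14 countable bases. The tenascin Tnn had 1.72 and 1.03 CPM in mature and 0.18 and 0.198 CPM in elderly libraries (edgeR adjusted p = 0.182), Tnxb 0 to 0.898 CPM and Tnr 0 counts. The periostin relative Tgfbi had at most 0.0858 CPM and 289 countable bases. Of the other 6 Fndc genes tested, 0 passed by edgeR, DESeq2 or the exact test and 0 had an unadjusted p under 0.05, and the most abundant, Fndc3b, had 1714 and 1543 CPM in mature and 1222 and 1537 CPM in elderly libraries.

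Of 19 receptors tested, 2 rose and 1 fell. Itgb8, the integrin subunit that pairs with αv and activates latent TGF-β, had 3.96 and 5.23 CPM in mature and 37.01 and 41.2 CPM in elderly libraries (log2 fold change 3.09, standard error 0.28, edgeR adjusted p = 1.4e-04). It lost its call only without elderly replicate 2, where calls were lost over all genes, and its log2 fold change there was 3.01. Stab1, the scavenger receptor that takes up SPARC, rose from 17.9 ± 4.91 to 51.9 ± 21.7 CPM (SD, n = 2; log2 fold change 1.53, edgeR adjusted p = 0.0188). It is also a gene of macrophages and sinusoidal endothelium. The macrophage markers summed to 21.3 and 25.6 CPM in mature and 30.5 and 50.1 CPM in elderly libraries, with Mrc1 the called gene among 4 tested. Mrc1 had 9.55 and 5.75 CPM in mature and 18.7 and 39.6 CPM in elderly libraries. Cd68, at 10.5 and 17.3 against 9.70 and 8.58 CPM, was lower in both elderly libraries, and Csf1r overlapped between ages. Emr1, with 106 countable bases, was at or below 0.33 CPM, and Fcgr1, with 21, was at 0. The 6 endothelial markers summed to 19.7 and 29.4 against 25.3 and 24.3 CPM, with Tek, with 58 countable bases, at 0. Within that list Pecam1 had 13.4 and 25.04 CPM in mature and 15.003 and 6.73 CPM in elderly libraries. Cdh5, at 1.38 and 1.63 against 3.23 and 9.30 CPM, and the sinusoidal gene Stab2, at 1.98 and 2.06 against 4.402 and 5.74 CPM, were above mature in both elderly libraries without passing the test (edgeR adjusted p = 0.0588 and 0.152). Their part in the Stab1 difference was not tested. Ptprz1, the receptor phosphatase that binds tenascins, fell from 20.6 ± 5.10 to 3.33 ± 0.139 CPM (SD, n = 2; log2 fold change −2.62, edgeR adjusted p = 1.1e-03). The fibronectin receptor subunits Itga5, at 145 to 183 CPM, and Itgb1, at 156 to 247 CPM, overlapped between ages.

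Of 19 assembly partners tested, Mfap5 rose and Ltbp1 fell. Mfap5, a microfibril protein, had 4 and 2 counts in mature and 117 and 99 in elderly libraries (edgeR adjusted p = 6.5e-04), a ratio of 31.9 with a 95% interval of 14.4 to 87.8 from counting error alone. It is also on the list of fibroblast markers. Ltbp1, which holds latent TGF-β in the fibronectin matrix, fell from 75.9 ± 2.39 to 37.4 ± 6.71 CPM (SD, n = 2; log2 fold change −1.02, edgeR adjusted p = 0.0257).

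**Figure D4:**
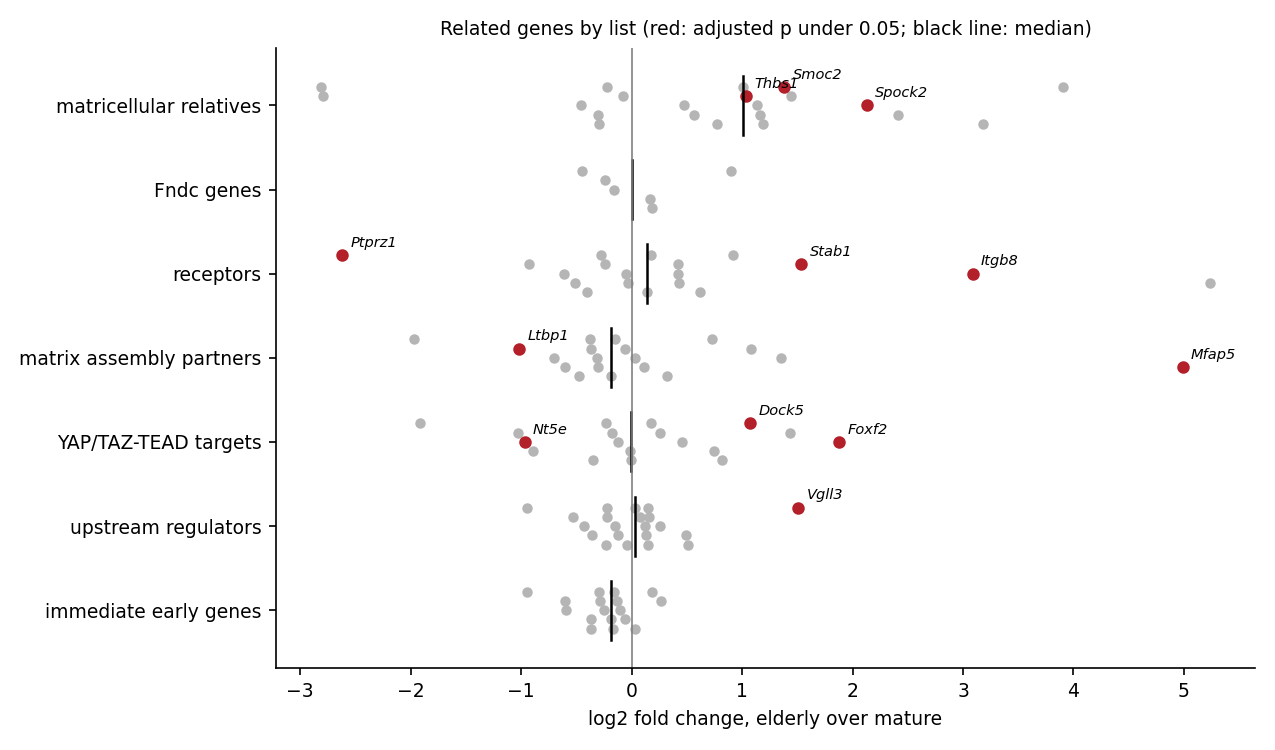
Fitted log2 fold change, elderly over mature (horizontal axis), of the tested genes in the 7 related lists (rows), with genes at an edgeR adjusted p under 0.05 in red and named, and list medians as black lines. The 9 genes that rose and 3 that fell were spread over 5 of the lists, and genes in grey far from 0, such as Thbs4, had few counts.

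The genes that act with or through YAP, TAZ and their TEAD partners, of which Ctgf and Cyr61 are standard targets, went both ways. Of 18 other targets, 2 rose, Foxf2 from 4.08 ± 2.12 to 15.1 ± 2.19 CPM and Dock5 from 35.4 ± 1.49 to 74.3 ± 3.22 CPM (SD, n = 2; edgeR adjusted p = 0.0176 and 0.0160). The ectonucleotidase gene Nt5e fell from 302 ± 4.37 to 154 ± 13.7 CPM (SD, n = 2; edgeR adjusted p = 0.0181), and the median log2 fold change of the 18 was −0.0090. The Nt5e call was also lost without either mature library, and the Dock5 call without mature replicate 2. Among 21 regulators, Vgll3, a TEAD cofactor, rose from 28.8 and 29.2 CPM to 64.7 and 100.1 CPM (log2 fold change 1.51, standard error 0.25, edgeR adjusted p = 5.6e-03). Yap1, at 102 and 79.7 against 80.05 and 54.4 CPM, and Srf, at 151 and 146 against 159 and 195 CPM, did not pass the test (edgeR adjusted p = 0.557 and 0.706). Wwtr1, the gene of TAZ, lay between 3.86 and 6.18 CPM in all libraries, with 328 countable bases.

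Cyr61 and Ctgf are also immediate early genes, which tissue digestion and sorting can induce. Several such genes were abundant in every library: Fos was counted at 11657 and 10115 CPM in mature and 7534 and 10299 CPM in elderly libraries. Others had low values, such as Klf4 at 1.78 to 3.79 CPM with 31 countable bases and Egr1 at 4.62 to 9.69 CPM with 64. Myc, with 379 countable bases, lay between 3.76 and 10.3 CPM. Of 17 immediate early genes tested, 0 passed by edgeR, DESeq2 or the exact test, although 2 had an unadjusted p under 0.05, and 14 were lower and 3 higher in elderly SSPCs, with a median log2 fold change of −0.19. Their part in the Cyr61 and Ctgf levels was not tested.

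The profile of Fndc1 over the 4 libraries was compared with that of 7039 genes with a mean of at least 10 CPM, by the Euclidean distance between centred log2 CPM values. The nearest were the histone genes Hist1h3c, Hist1h2ab and Hist1h3e, at distances of 0.551, 0.604 and 0.683. For Fn1, whose profile rests on 23 counts in all, they were Gm10800, Socs2 and Arhgap6, at 0.557, 1.35 and 1.43. With 4 libraries these distances describe an order of values and nothing more.

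Markers of other marrow cells moved with age beside Fndc1, Wisp2 and Tnc. The 5 erythroid markers summed to 80.1 and 48.3 CPM in mature and 381 and 253 CPM in elderly libraries, with 4 of 5 called higher. The 5 B lineage markers summed to 86.5 and 44.3 against 828 and 835 CPM, nearly all of it Ighm and with Cd79b at 0. The 5 neutrophil markers summed to 804 and 510 against 1869 and 1495 CPM, mostly S100a8, with 3 of 5 called higher. S100a9 had 13 countable bases and at most 4 counts in a library. Fibroblast markers summed to 20.3 and 23.4 CPM in mature and 71.7 and 60.1 CPM in elderly libraries, and 2 of 8 tested, Ly6a and Mfap5, rose. The sum of the 9 LEPR+ stroma markers was 29866 and 30485 CPM in mature and 18638 and 26823 CPM in elderly libraries. All 9 had a fitted fold change below 0, 0 passed the test by edgeR and 2 had an unadjusted p under 0.05. The 9 osteoblast markers summed to 7071 and 6431 against 2263 and 4240 CPM, mostly Ibsp, which fell, whereas Col1a1 and Phex rose. The chondrocyte markers summed to 74.5 and 99.9 against 92.0 and 90.7 CPM, mostly Sox9, which was not called. Among 7 tested, Acan fell from a mean of 12.2 to 0.587 CPM and Hapln1 from 8.07 to 0 CPM. Col2a1 rose from 0.601 to 4.31 CPM. The smooth muscle and pericyte markers summed to 76.3 and 140.1 against 111 and 109 CPM, and Acta2 rose among 5 tested. The part of these cells in the differences of Fndc1, Wisp2 and Tnc was not tested.

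**Figure D5:**
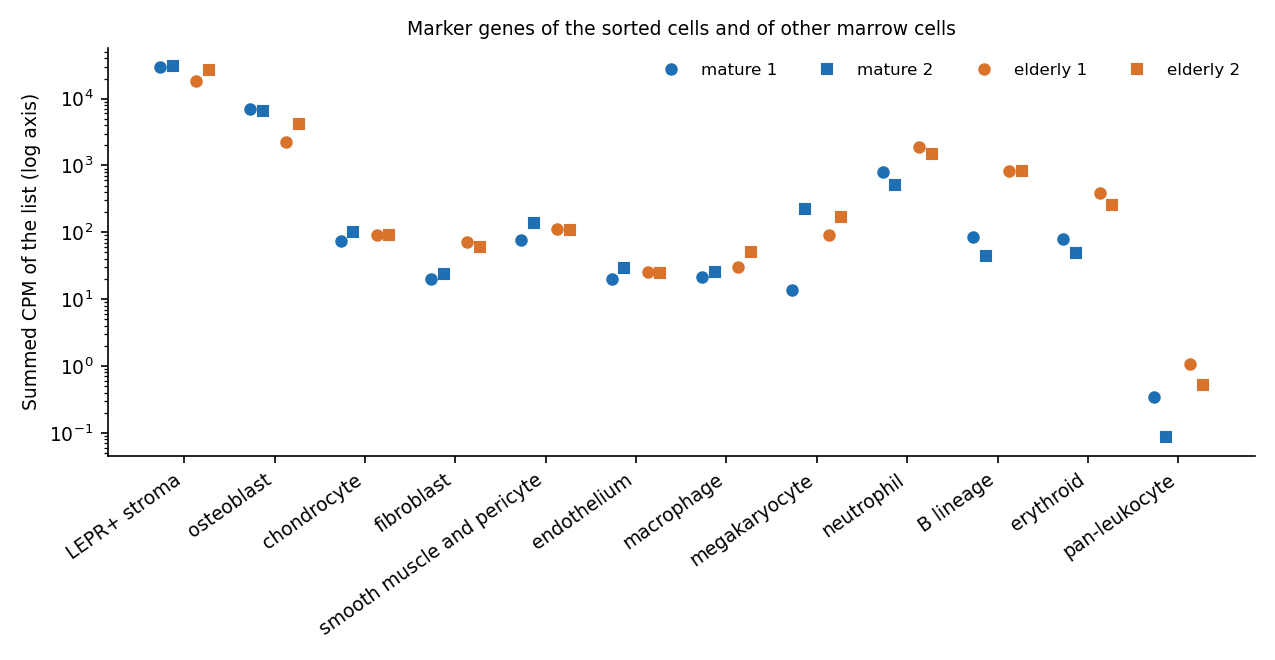
Summed CPM of each list of marker genes (vertical, log axis) in the 4 libraries. Erythroid, B lineage, neutrophil and fibroblast sums were higher in both elderly libraries, the LEPR+ stroma sum was lower in both, and the megakaryocyte sum was lowest in mature replicate 1.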

How the data were processed

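RNA of sorted marrow cells, with 3 or 4 mice pooled in each group according to the methods, was sequenced in 4 libraries, grouped by the ages in the sample labels. The authors removed adapters with CutAdapt, aligned to NCBI Build 37 (mm9) using HISAT2 and assigned reads using featureCounts; the strand setting is not given in the sources used here. The deposited values are counts per Ensembl transcript without normalization. Of 95883 transcripts, 388 were not in GENCODE M1 (0.0785% to 0.0888% of counts) and were left out. Counts were summed per gene symbol, of which 343 cover several gene IDs.

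Genes with a summed count above 2 were normalized by TMM and compared by edgeR 4.0.16's two-sided quasi-likelihood test (R 4.3.3) with Benjamini-Hochberg adjustment over 21340 genes, called at an adjusted p under 0.05. Fold changes use a prior count of 0.125. The study's exact test (dispersion 0.2), DESeq2 1.42.0, other filters and scalings, the replicate number as a term, transcript-level values and each library left out in turn were alternatives. Level summaries use CPM on the TMM scale, and 95% Poisson intervals and the floor of 3 counts cover counting error only. With 2 libraries against 2, each quasi-likelihood or DESeq2 adjusted p rests on variance shared across genes, and the exact test on its fixed dispersion. The quasi-likelihood test was run on counts simulated with the fit's own dispersion, with 200 of 20728 genes changed by a log2 fold of 2. It recovered 72.5% of these, 9 of its 154 calls were false, and it made 0 calls without change. Such counts cannot show how calls depend on a single real library.

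The 10 genes, the 7 related lists, the 12 marker lists and the tests were chosen with earlier results of these data known. Named with values were the 10 genes, called related genes whose ages did not overlap and whose mean reached 1 CPM (the 12 largest folds per direction), the other CCN, thrombospondin and tenascin genes, Tgfbi, Sparcl1, Smoc1, Smoc2, Yap1, Wwtr1, Srf, markers, and the 3 genes nearest in profile to Fndc1 and Fn1. Fndc3b, Itga5, Itgb1, Fos, Klf4, Egr1 and Myc were otherwise named after their values were seen.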

Additional observations from a re-analysis of the deposited data

How the results depend on the processing

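Of 139 fold changes of the 10 genes under the alternatives, 134 kept their direction. The 5 that did not belonged to Fn1, which without mature replicate 1 compares 0 counts with 1 and 3 and ranged from −3.41 to 4.00 over the fits with 1 library left out, to Thbs2 (−0.087 to 0.63), to Wisp1 (−0.13 to 0.91) and to Cyr61 (−0.45 to 0.25, and 0.0047 in the fit per transcript). The median of the 10 ranged from −0.16 to 0.58 when 1 library was left out and kept its direction under every other alternative.

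The related genes called moved between 0 and 9 (higher) and 0 and 3 (lower) when 1 library was left out, and the calls over all genes between 0 and 733 higher and 0 and 140 lower; without elderly replicate 2, edgeR called 0 of all genes, with 948 higher and 689 lower at an unadjusted p under 0.05. The exact test called 2 related genes higher and 1 lower, and 200 and 33 of all genes. Without a filter, 11 related genes were higher and 5 lower, and 892 and 265 of all genes were called. DESeq2 called 552 of all genes higher and 157 lower, and the robust quasi-likelihood fit 726 and 182. With the replicate number as a block, 13 related genes were higher and 6 lower, and 970 higher and 292 lower of all genes were called. Deviations from the age mean had r = 0.030 between samples with the same replicate number, across 7040 genes, which are not independent replicates. With 2 libraries per age this is a single correlation and cannot settle whether the libraries were paired. The main fit did not take the replicate numbers as pairs. The causes of these shifts were not tested. The depth limits Fn1, Postn, Nov, Wisp3 and Thbs4, which had few counts.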
